A study of Arabidopsis thaliana with 12 samples.

Results

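The 35 Arabidopsis thaliana genes described here act in chlorophyll, heme and bilin synthesis or chlorophyll breakdown, or encode 4 transcription factors that promote greening. Genes of the steps between aminolevulinic acid and protoporphyrin IX are not among them and are covered in a separate list. The 35 were chosen by locus for these known roles, with earlier results of these data known. They come from 21543 loci in a table of RNA-seq read counts. They comprised 18 genes of the path to chlorophyll (5 of the first steps, the repressor FLU among them, 7 of the magnesium branch, 6 of the late steps), 3 genes of the heme and bilin branch, 10 genes of chlorophyll breakdown and 4 regulators. All 35 passed the filter on low counts, so none was lost from the tests.

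The study sequenced mRNA of two-week-old seedlings of the wild type Col-0 and of a mutant labelled med8, grown on agar medium without addition (control) or with 25 nM methyl viologen, under 16 h of light and 8 h of dark. Methyl viologen, also called paraquat, takes electrons from photosystem I and passes them to oxygen, which forms superoxide in the chloroplast. Each of the 4 groups (Col-0 control, Col-0 on methyl viologen, med8 control, med8 on methyl viologen) had 3 libraries. MED8 is a subunit of Mediator, the assembly through which transcription factors reach RNA polymerase II. The labels name no allele, so the kind of lesion in med8, the number of lines and whether any MED8 protein remains are not given in the sources used here. They also give no hour of harvest and do not say whether the replicates came from separate plates or sowings, so the p-values speak of the spread among these samples alone, which may be technical.

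Tetrapyrroles are made in the plastid. Glutamyl-tRNA reductase, encoded by the HEMA genes, makes the first committed step towards aminolevulinic acid (ALA), and the membrane protein FLU holds that step back in the dark. At protoporphyrin IX the path forks: magnesium chelatase leads to chlorophyll, and ferrochelatase leads to heme and the bilins. Free intermediates are excited by light and pass the energy to oxygen, so seedlings keep supply and use of these pigments closely matched, and much of that control is set at transcription by light, the clock, hormones and the GLK and GATA factors. Breakdown runs through reduction of chlorophyll b to chlorophyll a, removal of magnesium and phytol, and opening of the ring.

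In this text a level is given in CPM (a gene's counts relative to the total of its library, scaled by edgeR's trimmed mean of M values), a number with a ± directly behind a gene or comparison is the log2 fold change ± SE from edgeR's quasi-likelihood test over all 20741 tested genes, and a gene "rose", "fell" or was "called" where its p, adjusted by Benjamini-Hochberg, was under 0.05. The libraries held 30.47 to 34.69 M counts. The members were well covered: the median over the 35 genes of the mean level was 99.4 CPM, against 14.6 CPM over all tested genes, and the lowest member, SGR2, still had 24 counts in its lowest library. MED8 itself stood at 18.9 to 22.2 CPM in the Col-0 libraries and 4.85 to 6.41 CPM in the med8 libraries. The shoot markers RBCS1A (a Rubisco small subunit gene), LHCB2.1 and CAB3 (antenna genes) were high in all libraries, with RBCS1A between 6986 and 13646 CPM, and all 3 fell in med8 on methyl viologen (−0.64 ± 0.12, −0.66 ± 0.14 and −0.51 ± 0.16, edgeR adjusted p = 0.00114, 0.00246 and 0.0197). In Col-0 none of the 3 was called (−0.18 ± 0.12, −0.22 ± 0.14 and −0.35 ± 0.15, edgeR adjusted p = 0.291, 0.273 and 0.117), and the interaction passed for none (edgeR adjusted p = 0.093, 0.165 and 0.707). Col-0 control replicate 1 and med8 control replicate 3 stood apart from their groups: their counts differed from those of the other 2 libraries with a chi-square per degree of freedom of 25.98 to 37, against 8.888 and 6.328 between those others. In each of these 2 libraries the mean log2 CPM of the 18 synthesis genes was the highest of its group (8.13 against 7.81 and 7.76 in the Col-0 controls, 8.38 against 8.06 and 8.10 in the med8 controls), and counts of members are also given without them, as are the calls of several members that change.

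On methyl viologen the deepest falls among the 35 genes were in Col-0, and the larger count of falls was in med8. In Col-0, 3 members rose (15.4% of all tested genes rose) and 12 fell (13.4% of all tested genes fell). These 15 calls compare with 28.8% of all tested genes called either way. In med8, 1 member rose, against 21.8% of all tested genes, and 21 fell, against 21.2% (43.1% either way). Treated and control libraries did not overlap at all for 3 members higher and 15 lower in Col-0 (22.9% and 21.3% of all tested genes) and for 1 higher and 25 lower in med8 (28.1% and 25%). The median log2 fold change of the 35 genes was −0.14 in Col-0 and −0.49 in med8, beside −0.0013 and 0.031 over all tested genes. The change itself differed between the genotypes (interaction test) in 16 of the 35 genes, 45.7% of them, against 13.9% of all tested genes. Of these 16, 8 had a higher and 8 a lower value in med8 than in Col-0 (6.25% and 7.66% of all tested genes). With both libraries that stood apart left out, the members numbered 3 higher and 12 lower in Col-0, 1 higher and 21 lower in med8, and 7 higher and 10 lower for the interaction. No share of all tested genes is set beside these counts. Calls over all genes also changed between fits. Without med8 control replicate 3 alone they numbered 7375 in Col-0, 9848 in med8 and 3332 for the interaction, against 5969, 8931 and 2885 in the main fit. The comparisons share libraries, so their counts are not independent of each other.

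**Figure D1:**
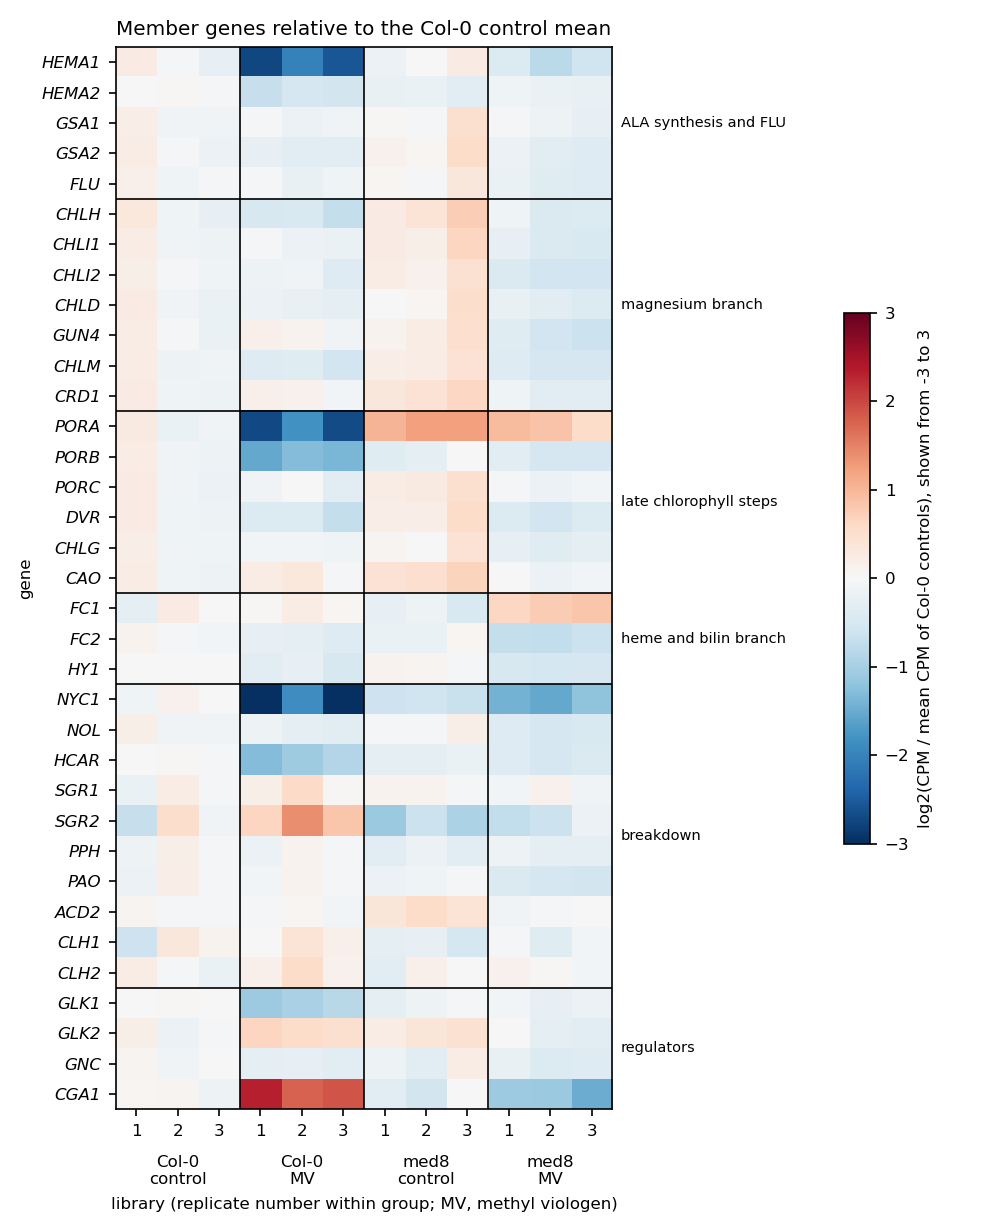
Level of each of the 35 genes (rows, grouped by role) in each of the 12 libraries (columns, replicate number within group), as the log2 ratio of its CPM to the mean CPM of the Col-0 controls, on a colour scale shown from −3 to 3. HEMA1, PORA and NYC1 are the darkest blue in Col-0 on methyl viologen, and CGA1 is red there. In all 3 med8 libraries on methyl viologen CGA1 is blue and the 7 genes of the magnesium branch are pale blue.

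Of the 35 genes, 6 fell in both genotypes (HEMA1, CHLH, CHLM, DVR, FC2 and HY1). A further 6 fell with a call in Col-0 and not in med8 (HEMA2, PORA, PORB, NYC1, HCAR and GLK1), and the interaction passed for each of these 6. With only the 2 groups compared in the fit, PORA, NYC1 and HCAR also passed in med8 (edgeR adjusted p = 0.0322, 0.00093 and 0.0328). Another 13 fell with a call in med8 and not in Col-0 (GSA2, FLU, CHLI1, CHLI2, CHLD, GUN4, CRD1, PORC, CHLG, CAO, NOL, PAO and ACD2), and the interaction passed for 6 of these 13 (CHLI1, CHLI2, GUN4, CRD1, CAO and ACD2). GLK2 and CGA1 rose in Col-0 and fell in med8. SGR2 rose in Col-0, FC1 rose in med8, and 6 genes (GSA1, SGR1, PPH, CLH1, CLH2 and GNC) were called in none of the 5 comparisons. Over all tested genes, 28.8% were called either way in Col-0, 43.1% in med8 and 13.9% for the interaction. The share of all tested genes with each joint pattern was not counted, so these classes only list the members.

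**Figure D2:**
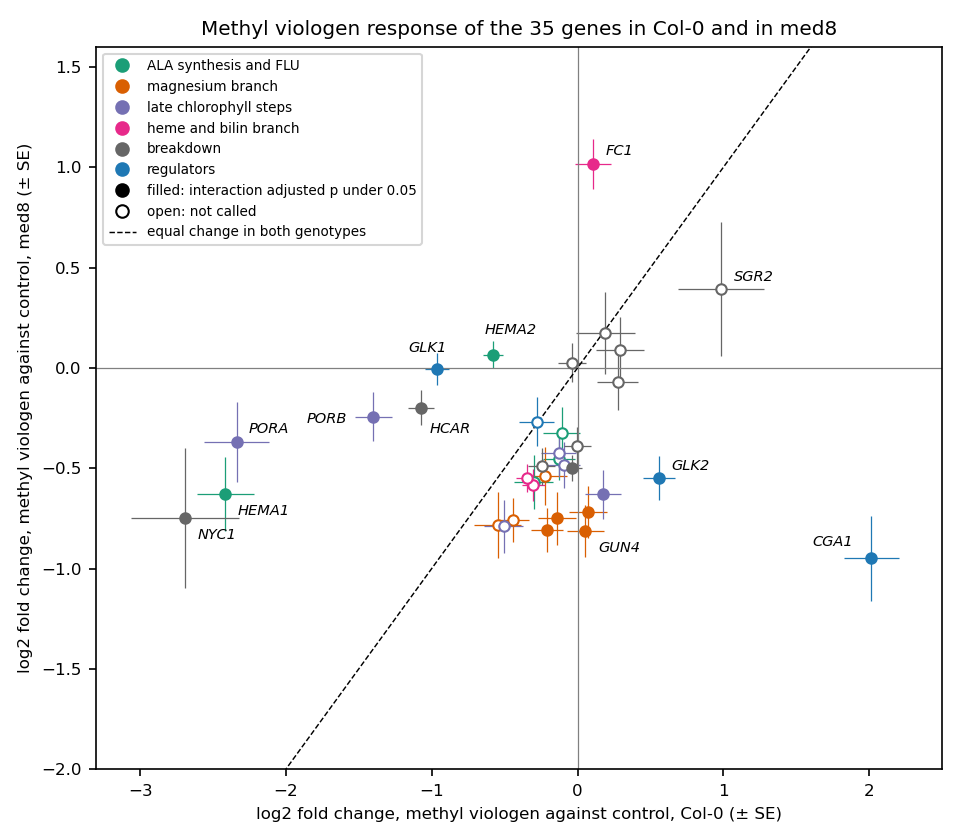
Log2 fold change of each gene on methyl viologen in Col-0 (horizontal) and in med8 (vertical), with SE bars, coloured by role; filled points passed the interaction test and the dashed line marks equal change. NYC1, HEMA1, PORA and PORB lie far to the left (−2.69 to −1.40 in Col-0), CGA1 lies far to the right (2.01), and the magnesium branch genes cluster near 0 to −0.55 on the horizontal axis and −0.54 to −0.81 on the vertical axis.

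The largest falls in Col-0 on methyl viologen were those of NYC1, HEMA1, PORA and PORB. NYC1 (AT4G13250) encodes a chlorophyll b reductase, HEMA1 (AT1G58290) the main glutamyl-tRNA reductase of green tissue, and PORA (AT5G54190) and PORB (AT4G27440) encode protochlorophyllide oxidoreductases, the enzymes that need light to turn protochlorophyllide into chlorophyllide. The 185 bases in front of the RefSeq TAIR10.1 start of each of these 4 genes, the deepest falls in Col-0, are shown. The interaction passed for all 4. HEMA2, HCAR and GLK1 also fell in Col-0 with an interaction that passed. Their windows are not printed, and none of them holds an evening element in the 300 bases before its start. No other annotated gene lies in the 4 printed windows. The length of the printed windows was set to reach just past the farthest evening element found, that of PORA, so they hold these elements by construction. They are printed 5′ to 3′ on the gene's strand, in the order PORA (chr5:21992815-21992999, minus strand), PORB (chr4:13725361-13725545, plus strand), NYC1 (chr4:7687007-7687191, minus strand) and HEMA1 (chr1:21626403-21626587, minus strand), with matches to the searched motifs in capitals.
PORA: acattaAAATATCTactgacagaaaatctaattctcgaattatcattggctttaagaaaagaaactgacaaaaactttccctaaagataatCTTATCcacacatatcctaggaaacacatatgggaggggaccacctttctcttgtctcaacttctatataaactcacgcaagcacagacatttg
PORB: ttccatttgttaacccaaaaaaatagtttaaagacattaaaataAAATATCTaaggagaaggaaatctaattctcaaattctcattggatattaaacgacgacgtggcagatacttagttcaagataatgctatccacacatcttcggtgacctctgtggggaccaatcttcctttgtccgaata
NYC1: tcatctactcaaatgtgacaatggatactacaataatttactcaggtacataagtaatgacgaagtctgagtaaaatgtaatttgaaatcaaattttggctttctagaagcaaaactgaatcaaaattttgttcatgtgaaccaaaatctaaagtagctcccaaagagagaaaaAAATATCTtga
HEMA1: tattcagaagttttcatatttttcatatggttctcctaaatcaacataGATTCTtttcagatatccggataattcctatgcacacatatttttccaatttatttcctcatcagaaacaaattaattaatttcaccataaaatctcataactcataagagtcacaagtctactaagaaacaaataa
In capitals are the evening element AAATATCT in PORA, PORB and NYC1, CTTATC in PORA (the GATA motif GATAAG on the other strand) and the GLK-type motif GATTCT in HEMA1. The evening element, a word first known from clock-controlled promoters, began 179 bases before the start of PORA, 141 before PORB and 11 before NYC1. Searched on both strands in the 300 bases before each start, it was found in these 3 of the 35 members (8.57%) and in 5.86% of 21518 windows of all genes in the table. These shares are close, and no test was run on them. PORA and PORB also share the run aaatctaattctc, 13 bases long, downstream of that element, the longest run common to any pair of the 4 windows. GATTCT stood before 6 members (17.1%, against 18.8% of windows), GATAAG before 5 (14.3%, against 14.5%), and the G-box CACGTG before 5 (14.3%, against 7.83%), namely CRD1, CAO, FC2, NOL and SGR2. A match to letters is a description and not a binding site.

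Of the first steps, HEMA1 fell in both genotypes and by far more in Col-0. The Col-0 controls gave HEMA1 360.5, 297 and 256 CPM, and the treated Col-0 libraries gave it 45.9, 74.2 and 51.1 CPM. The med8 controls gave 270.3, 308 and 358 CPM and the treated med8 libraries 229, 175 and 202 CPM. Treated and control libraries did not overlap in either genotype, and all 3 treated Col-0 libraries lay far below the treated med8 libraries. The fall was 5.33-fold in Col-0 (−2.42 ± 0.20, edgeR adjusted p = 7.94e-06), which left 18.7% of the control level, and 1.55-fold in med8 (−0.63 ± 0.19, edgeR adjusted p = 0.0176), which left 64.7%. The difference between these changes passed the interaction test (1.79 ± 0.27, edgeR adjusted p = 0.00116), and on methyl viologen HEMA1 was 3.54-fold higher in med8 than in Col-0 (1.82 ± 0.19, edgeR adjusted p = 6.82e-05). On control medium the genotypes gave 0.037 ± 0.19 (edgeR adjusted p = 0.933). The fall in med8 lost its call without med8 control replicate 3 (−0.53, edgeR adjusted p = 0.0501) and without med8 methyl viologen replicate 2 (value −0.54, edgeR adjusted p = 0.0736).

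HEMA2 (AT1G09940), the second reductase gene, known for expression in roots as well as shoots, fell in Col-0 from 25.2, 25.4 and 24.1 CPM to 15.5, 17.7 and 16.9 CPM (−0.58 ± 0.068, edgeR adjusted p = 9.48e-05). The med8 controls read 21.4, 21.8 and 19.7 CPM and the treated med8 libraries 22.9, 21.6 and 21.4 CPM, and they overlapped (0.066 ± 0.068, edgeR adjusted p = 0.46). The interaction passed (0.64 ± 0.096, edgeR adjusted p = 0.00116). Per kb of exon, HEMA2 made up 8.03% ± 1.10 (SD, n = 3) of the summed HEMA1 and HEMA2 level in the Col-0 controls and 24.0% ± 3.43 in Col-0 on methyl viologen, against 6.68% ± 1.12 and 10.3% ± 1.01 in med8. Glutamate-1-semialdehyde aminotransferase, the enzyme that finishes ALA, is encoded by GSA1 (AT5G63570) and GSA2 (AT3G48730). GSA1 was called in no comparison and ranged from 129 to 210.0 CPM over the 12 libraries. GSA2 stood at 271, 258 and 363 CPM in the med8 controls and fell to 219, 193 and 189 CPM on methyl viologen (−0.57 ± 0.13, edgeR adjusted p = 0.00498), while in Col-0 its value was −0.30 ± 0.13 (edgeR adjusted p = 0.117; 0.0303 without med8 control replicate 3). FLU (AT3G14110), the repressor of ALA synthesis, fell in med8 from 139, 130.1 and 169 CPM to 116, 104 and 101 CPM (−0.45 ± 0.11, edgeR adjusted p = 0.00547) and gave −0.13 ± 0.11 in Col-0 (edgeR adjusted p = 0.417). For GSA2 and FLU the difference between the genotypes did not pass (interaction −0.27 ± 0.19 and −0.33 ± 0.15, edgeR adjusted p = 0.408 and 0.198).

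**Figure D3:**
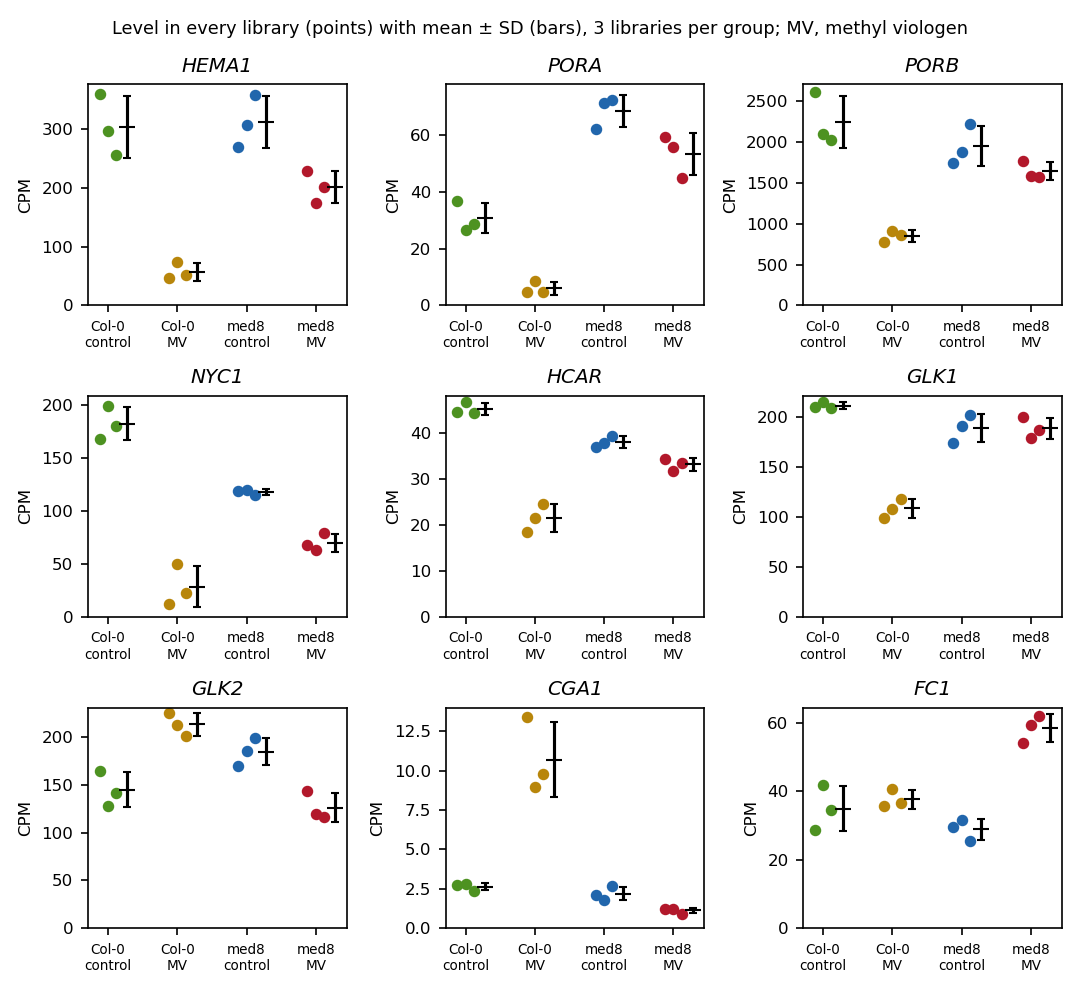
Level in CPM (vertical axis, from 0) of 9 genes in every library (points), with the mean ± SD of the 3 libraries of each group (bars). HEMA1, PORA, PORB, NYC1, HCAR and GLK1 are lowest in Col-0 on methyl viologen, GLK2 and CGA1 are highest there, and FC1 is highest in med8 on methyl viologen, between 54.1 and 62.1 CPM.

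All 7 genes of the magnesium branch fell in med8 on methyl viologen, with values from −0.54 to −0.81 and a median of −0.76. In Col-0, 2 of the 7 fell and the median was −0.21. Over all tested genes 21.2% fell in med8 and 13.4% in Col-0. The shoot markers RBCS1A, LHCB2.1 and CAB3 also fell in med8, with values from −0.51 to −0.66, and their part in the fall of this branch was not tested. The interaction was negative for all 7 and passed for 4 (it was negative and passed for 7.66% of all tested genes). Magnesium chelatase, which inserts magnesium into protoporphyrin IX, has the large subunit CHLH (AT5G13630, also known as GUN5), the ATPase subunits CHLI1 (AT4G18480) and CHLI2 (AT5G45930), and CHLD (AT1G08520); GUN4 (AT3G59400) is a porphyrin-binding protein that stimulates it.

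GUN4 showed the widest gap between the genotypes in this branch. Its libraries read 159, 131 and 119 CPM in Col-0 controls and 152, 146 and 126 CPM once treated, which overlap (0.054 ± 0.13, edgeR adjusted p = 0.793). The med8 controls read 147, 159.9 and 192 CPM and the treated med8 libraries 105, 91.8 and 87.1 CPM, with no overlap (−0.81 ± 0.13, edgeR adjusted p = 0.000421). The interaction was −0.87 ± 0.18 (edgeR adjusted p = 0.00855), and on methyl viologen GUN4 was lower in med8 than in Col-0 (−0.58 ± 0.13, edgeR adjusted p = 0.00728). GUN4 overlaps AT3G59410 on the other strand over 946 of its 1296 bases, and the strand setting of the authors' counting was not given, so its count may hold reads of that neighbour.

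CHLI2 fell in med8 from 120.2, 112 and 140.2 CPM to 75.2, 68.6 and 68.6 CPM (−0.81 ± 0.11, edgeR adjusted p = 0.000133), and CHLI1 from 618, 592 and 811 CPM to 437, 385 and 379.9 CPM (−0.75 ± 0.13, edgeR adjusted p = 0.000828). In Col-0 both overlapped between media (−0.21 ± 0.11 and −0.14 ± 0.13). Their interactions passed (CHLI2 −0.60 ± 0.15, edgeR adjusted p = 0.0235; CHLI1 −0.61 ± 0.19, edgeR adjusted p = 0.0496). The call of CHLI1 was lost in 14 of 19 alternative fits, 10 of which left out 1 library (edgeR adjusted p between 0.0502 and 0.121). That of CHLI2 was lost in 6, without Col-0 control replicate 2 or 3, Col-0 methyl viologen replicate 1 or 2, or med8 methyl viologen replicate 2 or 3 (edgeR adjusted p between 0.0572 and 0.0656). CRD1 (AT3G56940), the aerobic cyclase subunit that closes the fifth ring, read 2404, 2577 and 2950.3 CPM in the med8 controls and 1753, 1538 and 1528 CPM on methyl viologen (−0.72 ± 0.13, edgeR adjusted p = 0.000901), while the Col-0 libraries overlapped between media (0.071 ± 0.13, edgeR adjusted p = 0.72; interaction −0.79 ± 0.18, edgeR adjusted p = 0.0132). CHLD fell in med8 from 355, 369.9 and 515 CPM to 305, 280.4 and 267 CPM (−0.54 ± 0.15, edgeR adjusted p = 0.011), and in Col-0 its libraries, at 426, 331 and 312 CPM and then 315, 305 and 298 CPM, overlapped (−0.22 ± 0.15, edgeR adjusted p = 0.288).

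CHLH and CHLM were the 2 genes of this branch that fell in both genotypes. CHLH read 2244, 1656 and 1530.1 CPM in Col-0 controls and 1290.3, 1313 and 1109 CPM once treated (−0.55 ± 0.16, edgeR adjusted p = 0.0264). The med8 libraries went from 2137, 2401 and 3001 CPM to 1666, 1348 and 1368 CPM (−0.78 ± 0.16, edgeR adjusted p = 0.00256). No treated library overlapped the controls of its genotype. The call in Col-0 was lost without Col-0 control replicate 1, a library that stood apart (−0.36, edgeR adjusted p = 0.0966), and without Col-0 methyl viologen replicate 1 (value −0.58, edgeR adjusted p = 0.0596) or replicate 3 (−0.48, edgeR adjusted p = 0.102). CHLM (AT4G25080), the methyltransferase that follows the chelatase, fell in Col-0 from 411, 318 and 328 CPM to 269, 273 and 238 CPM (−0.44 ± 0.11, edgeR adjusted p = 0.01). In med8 CHLM fell from 408, 409.6 and 479 CPM to 270.0, 248 and 249 CPM (−0.76 ± 0.11, edgeR adjusted p = 0.000203). Its interaction gave −0.32 ± 0.15 (edgeR adjusted p = 0.213) and passed without Col-0 control replicate 1 (−0.44, edgeR adjusted p = 0.0399) or without both libraries that stood apart (−0.38, edgeR adjusted p = 0.03).

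Of the 3 protochlorophyllide oxidoreductase genes, PORA and PORB fell in Col-0 and PORC (AT1G03630) fell in med8. PORA is best known from dark-grown seedlings, PORB is expressed throughout greening and in green leaves, and PORC is induced by light. PORA read 36.7, 26.6 and 28.7 CPM in Col-0 controls and 4.71, 8.73 and 4.75 CPM once treated, a 5.06-fold fall (−2.34 ± 0.22, edgeR adjusted p = 2.58e-05). The med8 controls read 62.2, 71.5 and 72.3 CPM and the treated med8 libraries 59.1, 55.7 and 44.9 CPM (−0.37 ± 0.20, edgeR adjusted p = 0.162). All 6 med8 libraries lay above all 6 Col-0 libraries. PORA was 2.24-fold higher in med8 than in Col-0 on control medium (1.16 ± 0.20, edgeR adjusted p = 0.00931) and 8.79-fold higher on methyl viologen (3.14 ± 0.23, edgeR adjusted p = 5.24e-06), and the interaction was 1.97 ± 0.30 (edgeR adjusted p = 0.00134).

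PORB read 2614, 2098 and 2025 CPM in Col-0 controls and 774, 913 and 865 CPM once treated, a 2.64-fold fall (−1.40 ± 0.13, edgeR adjusted p = 1.4e-05). The med8 libraries went from 1744, 1878 and 2219 CPM to 1769.8, 1589 and 1578 CPM, which overlap (−0.24 ± 0.12, edgeR adjusted p = 0.132; interaction 1.16 ± 0.17, edgeR adjusted p = 0.00119). PORC read 284, 223 and 213 CPM in Col-0 controls and 224, 242 and 194 CPM once treated, which overlap (−0.13 ± 0.12). In med8 PORC went from 278, 289 and 335 CPM to 233, 211 and 228 CPM (−0.43 ± 0.12, edgeR adjusted p = 0.0137), a call that was lost without med8 methyl viologen replicate 2 (value −0.39, edgeR adjusted p = 0.0568). Per kb of exon, the summed level of the 3 POR genes was 1521 CPM per kb in the Col-0 controls and 645 CPM per kb in Col-0 on methyl viologen, against 1396 and 1160 CPM per kb in med8. The share of PORC in that sum was 8.82% in the Col-0 controls and 19.1% ± 1.93 (SD, n = 3) on methyl viologen, and 12.1% and 10.8% in med8.

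Of the 6 late genes, 3 fell in Col-0 (PORA, PORB and DVR) and 4 fell in med8 (PORC, DVR, CHLG and CAO). The shares of all tested genes that fell were 13.4% in Col-0 and 21.2% in med8. DVR (AT5G18660), the divinyl reductase, fell in Col-0 from 123, 94.4 and 92.1 CPM to 77.2, 78 and 62.6 CPM (−0.51 ± 0.13, edgeR adjusted p = 0.0141) and in med8 from 119, 119 and 151 CPM to 77.8, 69.8 and 77.1 CPM (−0.79 ± 0.13, edgeR adjusted p = 0.000634). The Col-0 call did not hold without Col-0 control replicate 1 (−0.36, edgeR adjusted p = 0.0521) or Col-0 methyl viologen replicate 3 (value −0.41, edgeR adjusted p = 0.0625). CHLG (AT3G51820), chlorophyll synthase, which attaches the phytol tail, fell in med8 from 185, 175 and 236 CPM to 148, 135 and 143 CPM (−0.49 ± 0.11, edgeR adjusted p = 0.00516). Its interaction was not called (−0.39 ± 0.16, edgeR adjusted p = 0.143) and passed without Col-0 control replicate 1 (edgeR adjusted p = 0.0443) or without both libraries that stood apart (edgeR adjusted p = 0.00987). CAO (AT1G44446), the oxygenase that makes chlorophyll b, read 235, 184 and 181 CPM in Col-0 controls and 235, 250.4 and 193 CPM once treated, which overlap (0.17 ± 0.12, edgeR adjusted p = 0.312; 0.31, edgeR adjusted p = 0.0314, without both libraries that stood apart). In med8 CAO fell from 269.8, 284 and 316 CPM to 197, 177 and 188 CPM (−0.63 ± 0.12, edgeR adjusted p = 0.00147), and the interaction passed (−0.80 ± 0.17, edgeR adjusted p = 0.00921).

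The 2 ferrochelatase genes went in opposite directions in med8. Ferrochelatase inserts iron into protoporphyrin IX; FC2 (AT2G30390) is the form linked to photosynthetic tissue, and FC1 (AT5G26030) is expressed in all organs and is known to respond to stress. FC1 read 29.6, 31.6 and 25.5 CPM in the med8 controls and 54.1, 59.5 and 62.1 CPM in med8 on methyl viologen, a 2.02-fold rise (1.02 ± 0.13, edgeR adjusted p = 7.56e-05). In Col-0 it read 28.6, 41.8 and 34.5 CPM and then 35.7, 40.7 and 36.6 CPM, which overlap (0.11 ± 0.12, edgeR adjusted p = 0.569). The interaction passed (0.91 ± 0.18, edgeR adjusted p = 0.00553). FC1 was the only member that rose in med8.

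FC2 fell in Col-0 from 103, 94.1 and 91.4 CPM to 80.7, 79 and 73.6 CPM (−0.30 ± 0.079, edgeR adjusted p = 0.0136), a call lost without Col-0 methyl viologen replicate 3 (value −0.27, edgeR adjusted p = 0.0574). In med8 FC2 fell from 84, 83.1 and 99.7 CPM to 58.6, 57.6 and 61.8 CPM (−0.58 ± 0.08, edgeR adjusted p = 0.000143). Per kb of exon, FC1 made up 26.3% ± 4.48 (SD, n = 3) of the summed ferrochelatase level in the Col-0 controls, 32.2% ± 1.73 in Col-0 on methyl viologen, 24.3% ± 3.75 in the med8 controls and 49.2% ± 1.45 in med8 on methyl viologen. The sum itself stayed between 56.8 and 64.6 CPM per kb in the 4 group means. HY1 (AT2G26670), the heme oxygenase that starts the path to the phytochrome chromophore, fell in Col-0 from 127, 129 and 126 CPM to 101, 108 and 90.8 CPM (−0.35 ± 0.07, edgeR adjusted p = 0.00309). In med8 HY1 fell from 137, 135 and 124 CPM to 91.2, 88.8 and 90.5 CPM (−0.55 ± 0.07, edgeR adjusted p = 8.85e-05).

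**Figure D4:**
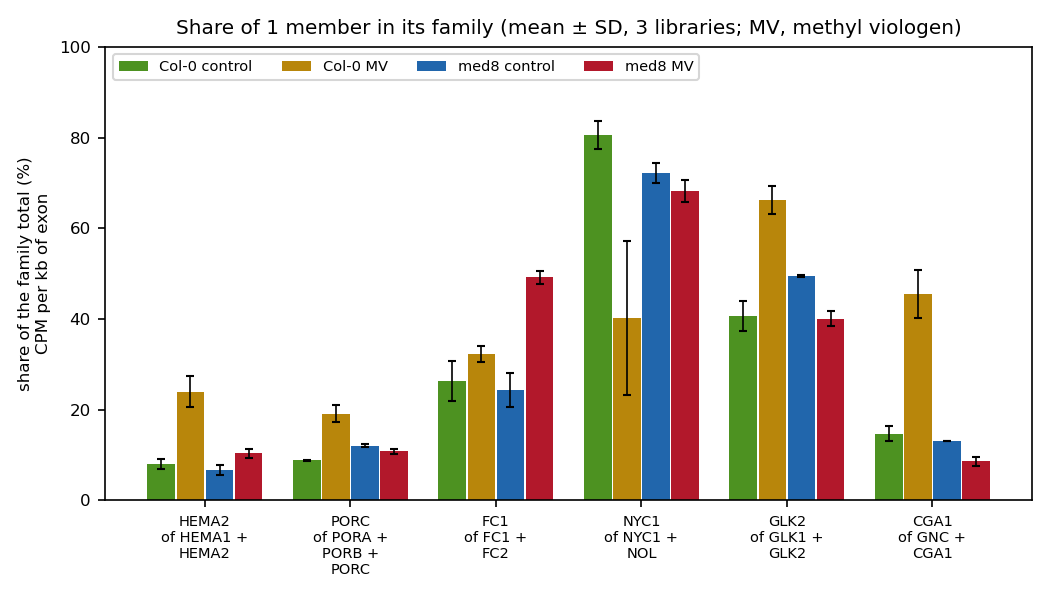
Share (%) of the first-named gene in the summed level of its family, per kb of exon, as mean ± SD of 3 libraries in each group. Col-0 on methyl viologen stands apart for HEMA2 (24.0%), PORC (19.1%), NYC1 (40.2%), GLK2 (66.3%) and CGA1 (45.5%), and med8 on methyl viologen stands apart for FC1 (49.2%).

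Of the 10 breakdown genes, 1 rose and 2 fell in Col-0 (15.4% and 13.4% of all tested genes did), and 3 fell in med8 (21.2% of all tested genes did), counts near those shares. The 2 falls in Col-0 belong to the enzymes that turn chlorophyll b back into chlorophyll a. NYC1 read 168, 199 and 180.0 CPM in Col-0 controls and 12.2, 49.7 and 22.7 CPM once treated, a 6.46-fold fall (−2.69 ± 0.37, edgeR adjusted p = 0.000313). The med8 controls read 118, 119.7 and 115 CPM and the treated med8 libraries 67.9, 62.6 and 79.2 CPM, with no overlap but no call (−0.75 ± 0.35, edgeR adjusted p = 0.105). Col-0 on methyl viologen was the most scattered group, and without its replicate 2 the fall in Col-0 was −3.38 (edgeR adjusted p = 6.81e-06) and that in med8 passed (−0.75, edgeR adjusted p = 0.00607). The interaction was 1.94 ± 0.50 (edgeR adjusted p = 0.0243), but it lost its call in 6 alternative fits: without Col-0 control replicate 2 (edgeR adjusted p = 0.0524), Col-0 methyl viologen replicate 3 (0.0558), med8 control replicate 2 (0.0509), med8 control replicate 3 (0.0825) or med8 methyl viologen replicate 3 (0.0563), and without both libraries that stood apart (0.0992). With Col-0 methyl viologen replicate 2 left out it came to 2.64 (edgeR adjusted p = 0.000303).

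HCAR (AT1G04620), the next reductase in the return from chlorophyll b, read 44.4, 46.6 and 44.3 CPM in Col-0 controls and 18.3, 21.5 and 24.5 CPM once treated (−1.07 ± 0.089, edgeR adjusted p = 8.68e-06). The med8 libraries went from 36.9, 37.7 and 39.3 CPM to 34.3, 31.6 and 33.4 CPM (−0.20 ± 0.088, edgeR adjusted p = 0.091), and the interaction passed (0.87 ± 0.12, edgeR adjusted p = 0.000875). NOL (AT5G04900), the partner reductase of NYC1, fell in med8 from 29.1, 29.2 and 33.6 CPM to 22.9, 20.9 and 21.8 CPM (−0.49 ± 0.092, edgeR adjusted p = 0.00129) and gave −0.25 ± 0.092 in Col-0 (edgeR adjusted p = 0.0657; 0.0402 without med8 control replicate 3). Per kb of exon, NYC1 made up 80.5% ± 3.07 (SD, n = 3) of the sum of NYC1 and NOL in the Col-0 controls and 40.2% ± 17.0 in Col-0 on methyl viologen, against 72.2% and 68.3% in med8.

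SGR1 (AT4G22920) and SGR2 (AT4G11910) encode the STAY-GREEN proteins, and SGR1 removes magnesium from chlorophyll a. SGR1 stayed between 12.2 and 20.7 CPM and was not called. SGR2 rose in Col-0 from 1.11, 2.59 and 1.67 CPM to 2.79, 4.7 and 3.16 CPM (0.99 ± 0.30, edgeR adjusted p = 0.0265), a call that was lost without Col-0 control replicate 1 (0.74, edgeR adjusted p = 0.0816) or replicate 3 (0.94, edgeR adjusted p = 0.0846), without Col-0 methyl viologen replicate 2 (value 0.73, edgeR adjusted p = 0.0996), and without both libraries that stood apart (0.74, edgeR adjusted p = 0.053). On methyl viologen SGR2 was lower in med8 than in Col-0 (−1.48 ± 0.30, edgeR adjusted p = 0.00433). PPH (AT5G13800), the pheophytinase that removes phytol, and the chlorophyllase genes CLH1 (AT1G19670) and CLH2 (AT5G43860) were not called. Their libraries ranged from 54.9 to 78.6 CPM for PPH, 49.4 to 100.5 CPM for CLH1 and 3.75 to 6.99 CPM for CLH2.

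Among the breakdown genes, PAO and ACD2 also fell in med8, besides NOL. PAO (AT3G44880), which opens the ring of pheophorbide a, fell from 66.2, 68.1 and 73.1 CPM to 55.4, 52.3 and 50.6 CPM (−0.39 ± 0.093, edgeR adjusted p = 0.00553). ACD2 (AT4G37000), the reductase of the red product of PAO, fell from 75, 85.1 and 77.5 CPM to 54.2, 55.6 and 58.4 CPM (−0.50 ± 0.066, edgeR adjusted p = 0.00012). In Col-0 neither was called, with values of −0.00067 ± 0.093 and −0.035 ± 0.066. The interaction passed for ACD2 (−0.46 ± 0.094, edgeR adjusted p = 0.00704), and PAO gave −0.39 ± 0.13 (edgeR adjusted p = 0.0744).

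The regulators split by paralog. GLK1 (AT2G20570) and GLK2 (AT5G44190) encode GARP-type factors that activate genes of chlorophyll synthesis and of the antenna. GLK1 read 209, 215 and 209 CPM in Col-0 controls and 99.1, 108 and 118 CPM once treated (−0.96 ± 0.081, edgeR adjusted p = 9.27e-06). The med8 libraries went from 174, 191 and 202 CPM to 199.5, 179 and 186 CPM, which overlap (−0.0036 ± 0.08, edgeR adjusted p = 0.976). The interaction was 0.96 ± 0.11 (edgeR adjusted p = 0.000263).

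GLK2 went the other way. It read 164, 128 and 142 CPM in Col-0 controls and 225, 213 and 201 CPM once treated (0.56 ± 0.11, edgeR adjusted p = 0.00254). The med8 libraries went from 169.8, 185 and 199 CPM to 143, 119 and 116 CPM (−0.55 ± 0.11, edgeR adjusted p = 0.00172). Neither pair of groups overlapped, and the interaction was −1.11 ± 0.15 (edgeR adjusted p = 0.000715). Per kb of exon, GLK2 made up 40.5% ± 3.32 (SD, n = 3) of the summed GLK level in the Col-0 controls, 66.3% ± 3.15 in Col-0 on methyl viologen, 49.4% ± 0.182 in the med8 controls and 40.0% ± 1.69 in med8 on methyl viologen. The sum of both was 205, 185, 215 and 181 CPM per kb in the same order of groups.

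CGA1 (AT4G26150), also known as GNL, and its paralog GNC (AT5G56860) encode GATA factors that promote chloroplast development and respond to light, nitrate and cytokinin. CGA1 read 2.77, 2.81 and 2.37 CPM in Col-0 controls and 13.4, 8.97 and 9.76 CPM once treated, a 4.04-fold rise (2.01 ± 0.19, edgeR adjusted p = 1.87e-05). The med8 libraries went from 2.1, 1.82 and 2.67 CPM to 1.24, 1.23 and 0.939 CPM, a 1.93-fold fall (−0.95 ± 0.21, edgeR adjusted p = 0.00378). Treated and control libraries did not overlap in either genotype. The interaction was −2.96 ± 0.28 (edgeR adjusted p = 6.9e-05), the largest in size of the 35, and on methyl viologen CGA1 was 9.41-fold lower in med8 than in Col-0 (−3.23 ± 0.20, edgeR adjusted p = 1.8e-06). GNC stayed between 12.7 and 19.6 CPM in all libraries and was not called, though its value in Col-0 (−0.28 ± 0.12, edgeR adjusted p = 0.106) passed without med8 control replicate 3 (edgeR adjusted p = 0.0201). Per kb of exon, CGA1 made up 14.7% ± 1.65 (SD, n = 3) of the sum of GNC and CGA1 in the Col-0 controls and 45.5% ± 5.27 in Col-0 on methyl viologen, against 13.0% ± 0.0638 and 8.54% ± 1.09 in med8.

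On control medium few of these genes were called between the genotypes, and the count depended on single libraries. Of the 35, 3 were higher in med8 (2.81% of all tested genes were) and 0 were lower (2.98% of all tested genes were; 5.79% either way). The libraries of the genotypes did not overlap for 5 members higher and 5 lower (11.9% and 11.4% of all tested genes). At an unadjusted edgeR p under 0.05 the counts were 12 higher and 4 lower, and the share of all tested genes at that threshold was not counted. At an adjusted p under 0.05 DESeq2 called 6 members higher and 1 lower, and it called 1976 genes either way, against 1200 in the main fit. The 3 genes were PORA, CAO (0.53 ± 0.12, edgeR adjusted p = 0.0265) and ACD2 (0.45 ± 0.066, edgeR adjusted p = 0.00493). The 7 magnesium branch genes all had positive values, with a median of 0.29 and no call. The member counts turned on the libraries that stood apart: 10 were higher and 2 lower without Col-0 control replicate 1, and 10 were higher and 0 lower without both. The calls over all genes also grew in these fits, to 1625 without Col-0 control replicate 1 and 1848 without both. CAO lost its call without Col-0 control replicate 2 (0.48, edgeR adjusted p = 0.116) or replicate 3 (0.47, edgeR adjusted p = 0.11) and without med8 control replicate 2 (0.55, edgeR adjusted p = 0.0633).

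On methyl viologen, 8 members were higher in med8 than in Col-0 (10.8% of all tested genes were) and 6 were lower (12.9% of all tested genes were; 23.7% either way). Libraries did not overlap for 9 members higher and 13 lower (23.1% and 23.2% of all tested genes). The 8 were HEMA1, HEMA2, PORA, PORB, FC1, NYC1, HCAR and GLK1, and the 6 were GUN4, FC2, SGR2, PAO, GLK2 and CGA1. HEMA2 was higher by 0.40 ± 0.068 (edgeR adjusted p = 0.00154), PORB by 0.95 ± 0.12 (edgeR adjusted p = 0.000248), HCAR by 0.63 ± 0.089 (edgeR adjusted p = 0.000452) and GLK1 by 0.80 ± 0.081 (edgeR adjusted p = 4.75e-05). NYC1 was higher by 1.31 ± 0.36 (edgeR adjusted p = 0.0211), a call lost without Col-0 methyl viologen replicate 3 (value 1.18, edgeR adjusted p = 0.072) or med8 methyl viologen replicate 3 (value 1.21, edgeR adjusted p = 0.0648), or without both libraries that stood apart (1.31, edgeR adjusted p = 0.0622), while with Col-0 methyl viologen replicate 2 left out it came to 2.00 (edgeR adjusted p = 0.000199). FC1 was higher by 0.64 ± 0.12 (edgeR adjusted p = 0.00333). Among the lower genes, FC2 gave −0.39 ± 0.08 (edgeR adjusted p = 0.0043), PAO −0.50 ± 0.093 (edgeR adjusted p = 0.00254) and GLK2 −0.76 ± 0.11 (edgeR adjusted p = 0.000474). Without both control libraries that stood apart, 7 members were higher and 13 lower, and no share of all tested genes is set beside these counts. Calls over all genes in this comparison also grew when a control library was dropped. They came to 6390 without med8 control replicate 3 alone, against 4906 in the main fit, so the larger count is not particular to the members.

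Further genes of tetrapyrrole synthesis, its regulation and breakdown were taken from a list of 29. Of the 28 tested (HEMB2 was removed by the count filter), 1 rose and 7 fell in Col-0 on methyl viologen, and 1 rose and 21 fell in med8, beside 15.4% and 13.4% of all tested genes in Col-0 and 21.8% and 21.2% in med8. In Col-0 the smallest adjusted p belonged to HEME1, uroporphyrinogen decarboxylase (−0.61 ± 0.13, edgeR adjusted p = 0.00388), HEMB1, ALA dehydratase (−0.41 ± 0.09, edgeR adjusted p = 0.00545), CHLP, geranylgeranyl reductase (−0.62 ± 0.14, edgeR adjusted p = 0.00602), and MES16, a demethylase of breakdown products, which rose (0.71 ± 0.17, edgeR adjusted p = 0.00956). In med8 it belonged to SGRL, a STAY-GREEN-like gene (−0.86 ± 0.11, edgeR adjusted p = 7.99e-05), CLD1 (−0.75 ± 0.09, edgeR adjusted p = 8.09e-05), TIC55-II (−0.51 ± 0.07, edgeR adjusted p = 0.00011) and LIL3:2 (−0.49 ± 0.07, edgeR adjusted p = 0.00012). The interaction was negative and passed for 9 of the 28 (7.66% of all tested genes) and positive for 1 (6.25%), UPM1, the methyltransferase towards siroheme (0.74 ± 0.13, edgeR adjusted p = 0.00339). On control medium 1 of the 28 was lower in med8, again UPM1 (−0.41 ± 0.09, edgeR adjusted p = 0.0269).

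Of 10 transcription factors known to act on chlorophyll breakdown, 1 rose and 1 fell in Col-0 on methyl viologen, and 3 rose and 2 fell in med8. All tested genes were called either way in 28.8% of cases in Col-0 and 43.1% in med8, so these counts say nothing particular of the list. EEL, a bZIP factor, rose in both (1.03 ± 0.18, edgeR adjusted p = 0.00144, and 0.92 ± 0.18, edgeR adjusted p = 0.00137). SOC1, known as a flowering regulator, fell in med8 (−1.20 ± 0.13, edgeR adjusted p = 3.88e-05), and its interaction was −0.88 ± 0.19 (edgeR adjusted p = 0.00895). ABI5, a bZIP factor of abscisic acid responses, rose in med8 (1.18 ± 0.20, edgeR adjusted p = 0.0006). Of 5 tested senescence markers, 2 rose and 1 fell in Col-0, and 2 rose in med8, too few to set against those shares.

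Other properties of the libraries moved with these groups. The difference between the mean log2 CPM of 4 morning clock genes (CCA1, LHY, RVE8 and PRR9) and of 4 evening clock genes (TOC1, GI, LUX and ELF4) was −4.23 to −3.86 in the Col-0 controls, −3.09 to −2.71 in the med8 controls, −2.14 to −1.78 in med8 on methyl viologen and −1.27 to −0.60 in Col-0 on methyl viologen, with no overlap between any 2 groups. In Col-0 all 4 morning genes rose and all 4 evening genes fell on methyl viologen (15.4% of all tested genes rose and 13.4% fell). In med8 3 morning genes and 1 evening gene rose (21.8% of all tested genes did). Several members are known to cycle over the day, the hour of harvest is not in the labels, and the part of these clock values in the results was not tested.

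The mean log2 CPM of 15 root marker genes was 3.77 to 3.96 in the Col-0 controls, 3.30 to 3.93 in Col-0 on methyl viologen, 2.85 to 4.02 in the med8 controls and 3.38 to 3.44 in med8 on methyl viologen. The value of 2.85 belonged to med8 control replicate 3, which also had the highest level of the synthesis genes. The summed level of the 15 ranged from 1635 to 2021 CPM in the Col-0 controls, 1897 to 2729 CPM in Col-0 on methyl viologen, 848 to 1589 CPM in the med8 controls and 1359 to 1445 CPM in med8 on methyl viologen, and none was at 0 in any library. Most of that sum came from PYK10 alone, with means of 1633, 1969, 1062 and 1091 CPM in the same order of groups. The sum therefore mainly follows PYK10 and is no measure of the root share. Of the 15, 2 rose and 4 fell on methyl viologen in each genotype. All tested genes were called either way in 28.8% of cases in Col-0 and 43.1% in med8, so these counts say little of the list. The part of the root share in the results was not tested. In whole seedlings, fewer green cells and less RNA per green cell cannot be told apart.

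**Figure D5:**
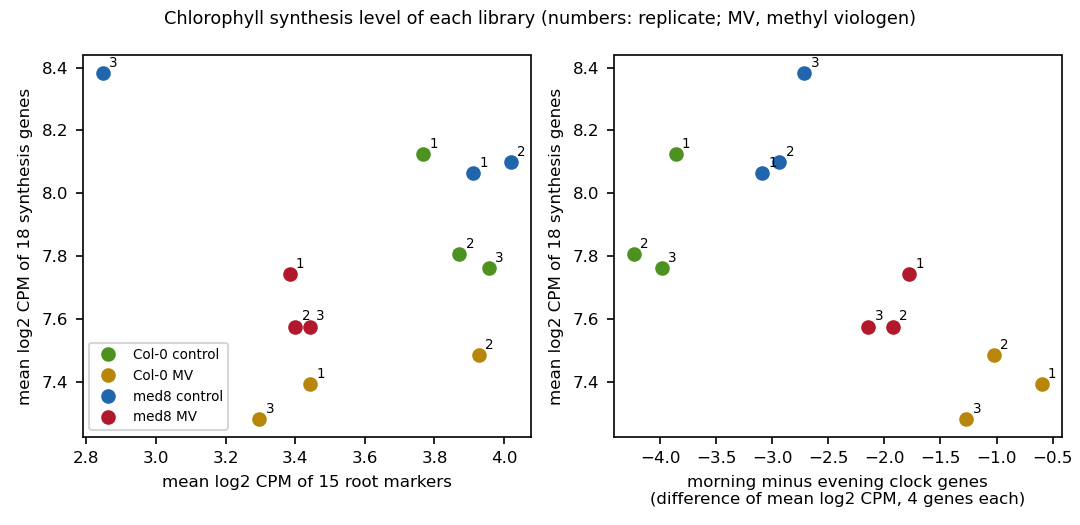
Mean log2 CPM of the 18 synthesis genes (vertical axis) in each library against the mean log2 CPM of 15 root markers (left) and against the difference between morning and evening clock genes (right); numbers are replicates. The mean of the synthesis genes lies between 7.28 and 7.49 in treated Col-0 libraries and between 7.58 and 7.74 in med8 on methyl viologen. All control libraries lie above (7.76 to 8.38), and med8 control replicate 3 stands alone at the left of the root axis. The mean includes the deep falls of HEMA1, PORA and PORB in Col-0. The median log2 fold change of the 18 genes on methyl viologen was −0.22 in Col-0 and −0.60 in med8. For med8 against Col-0 on methyl viologen the median was −0.032, with 8 genes positive and 10 negative.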

How the data were processed

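The deposited table holds raw counts per gene. The authors trimmed reads with Trim Galore 0.3.3, aligned them with TopHat2 2.1.0 to TAIR10 and counted them with featureCounts of Subread 1.4.6, per the submitters' processing notes. Libraries were made with a stranded mRNA kit and read as 75 bp single ends on an Illumina NextSeq, per the labels' protocols. Whether the counting used the strand is not given in the sources used here. With that unknown, reads of members that overlap a neighbour cannot be assigned with certainty, mainly GUN4 (946 bases) and CLH2 (913 bases). No stretch of 75 bases was shared, within 2 mismatches, between the paralogs compared.

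The members and lists were chosen with earlier results of these data known. The filter filterByExpr (count at least 10, total at least 15) kept 20741 of 21543 loci. All 12 libraries entered 1 robust quasi-likelihood fit by edgeR 4.0.16 (R 4.3.3), scaled with TMM and holding a mean for each group. P-values were adjusted by Benjamini-Hochberg over those 20741 genes for each of 5 comparisons, with a threshold of 0.05. Mean log2 CPM values used a prior count of 2. The SE is the log2 fold change divided by the square root of F. With 30.47 to 34.69 M counts a library, depth limits SGR2, CGA1 and CLH2 most. No 2 libraries of a group agreed within counting noise, so none was treated as a duplicate; this does not show how the replicates were made.

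All 35 members are accounted for, with library values for those called on methyl viologen; of the other lists, at most the 4 genes with the smallest adjusted p in a comparison are named. Gene positions, exon lengths and upstream windows come from RefSeq TAIR10.1, matched by locus. As alternatives, scaling was changed to RLE or upper quartile, the filter was dropped or set to 1 CPM in 3 libraries, the replicate number was added as a block, DESeq2 1.42.0 replaced edgeR, the fit was limited to the 2 groups compared, each library was left out, and 2 control libraries were left out together.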

Additional observations from a re-analysis of the deposited data

Results flagged for a closer look

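For 16 of the 35 genes the change on methyl viologen differed between the genotypes by the interaction test in edgeR (adjusted p under 0.05), against 13.9% of all tested genes. The values here are the log2 change in med8 minus that in Col-0. They were positive for 8 genes: PORA 1.97, NYC1 1.94, HEMA1 1.79, PORB 1.16, GLK1 0.96, FC1 0.91, HCAR 0.87 and HEMA2 0.64. For 7 of these the gene fell in Col-0, and FC1 is the exception, a gene that rose in med8. They were negative for the other 8: CGA1 −2.96, GLK2 −1.11, GUN4 −0.87, CAO −0.80, CRD1 −0.79, CHLI1 −0.61, CHLI2 −0.60 and ACD2 −0.46. All of these 8 fell in med8 on methyl viologen, and CGA1 and GLK2 also rose in Col-0.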

How the results depend on the processing

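Of 70 calls of member genes, 58 held in each alternative fit run, 12 were lost in at least 1, and none turned its sign. The lost calls were those of CHLH, DVR, FC2 and SGR2 for methyl viologen in Col-0, HEMA1 and PORC for it in med8, CAO and ACD2 between genotypes on control medium, NYC1 between genotypes on methyl viologen, and CHLI1, CHLI2 and NYC1 for the interaction. With only the 2 groups compared, CAO (edgeR adjusted p = 0.117) and ACD2 (0.0568) on control medium, NYC1 between genotypes on methyl viologen (0.0792) and SGR2 in Col-0 (0.05) missed. The comparison of genotypes on control medium moved most. There DESeq2 called 1976 genes (members 6 higher, 1 lower), a fit of only the 2 groups called 143 (members 1 and 1), upper-quartile scaling called 1 member lower, and leaving out Col-0 control replicate 1 and med8 control replicate 3 together called 1848 (members 10 higher), against 1200 (3 and 0). With single libraries left out it called 402 to 1625 genes, 2 to 10 members higher and 0 to 2 lower. Between genotypes on methyl viologen, members lower numbered 10 with only those groups and 13 without both control libraries, against 6, and genes called ranged from 3211 to 6390 with single libraries left out. For the interaction that range was 1874 to 3332. The cause of these shifts was not tested. Of 105 uncalled member values, 31 passed in at least 1 alternative and 28 changed sign in some fit. With the 2 control libraries left out the sign changes were GSA1 0.0059, PORC 0.014, CHLG 0.021, FC1 −0.016, ACD2 0.0049 and CLH1 −0.039 for methyl viologen in Col-0, PPH −0.021 and GLK1 0.034 for it in med8, CLH2 0.060 between genotypes on control medium, and CLH1 0.12 for the interaction. With upper-quartile scaling they were GLK1 0.022 (methyl viologen in med8), CHLM 0.011 and ACD2 0.021 (genotypes on methyl viologen) and CLH1 0.022 (interaction). With DESeq2 they were PPH −0.00040 (methyl viologen in med8), GSA2 −0.0092 (genotypes on methyl viologen) and GNC −0.0082 (interaction). RLE scaling gave GSA2 −0.0081 and GNC −0.0075 in the same comparisons, and the filter of 1 CPM in 3 libraries gave GLK1 0.0038 for methyl viologen in med8. With single libraries left out, the values for methyl viologen in Col-0 ranged from −0.17 to 0.0031 for GSA1, −0.21 to 0.010 for PORC, −0.15 to 0.018 for CHLG, −0.019 to 0.25 for FC1, −0.080 to 0.0019 for ACD2, −0.042 to 0.40 for CLH1, −0.0025 to 0.21 for CRD1, −0.12 to 0.049 for PPH, −0.083 to 0.10 for PAO and −0.032 to 0.18 for GUN4. In med8 they ranged from −0.039 to 0.20 for CLH2, −0.060 to 0.034 for GLK1 and −0.021 to 0.078 for PPH. Between genotypes on control medium they ranged from −0.031 to 0.19 for SGR1, −0.17 to 0.070 for CLH2, −0.19 to 0.0082 for PAO, −0.074 to 0.18 for HEMA1, −0.016 to 0.15 for NOL and −0.23 to 0.046 for GNC. On methyl viologen they ranged from −0.083 to 0.013 for CHLM, −0.066 to 0.044 for GSA2, −0.044 to 0.030 for ACD2, −0.055 to 0.10 for PORC, −0.051 to 0.10 for DVR and −0.088 to 0.0022 for GSA1. For the interaction they ranged from −0.24 to 0.22 for CLH1, −0.11 to 0.17 for GNC and −0.038 to 0.15 for PPH. Replicate numbers are shared by the groups but no label says that they pair samples, and of 18 same-numbered pairs 7 had a correlation of deviations over 0.1 (−0.379 to 0.458), while 7 of 12 libraries correlated best with their own number. With a replicate block the members called numbered 3 higher and 12 lower in Col-0 and 1 higher and 21 lower in med8, as without it, 8 higher and 7 lower for the interaction, and PAO in Col-0 was 0.0024. No share of all tested genes is set beside the counts of the block fit.

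The results come from whole seedlings with 3 libraries a group. A share of counts is relative to the other transcripts of the library. SGR2 and CGA1 are the members with the fewest counts (24 to 162 and 36 to 494 a library), and counts of members that overlap a neighbouring gene remain uncertain.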

Other observations

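Among 5 senescence markers, the sugar transporter gene SAG29 rose in Col-0 on methyl viologen (5.09 ± 0.27, edgeR adjusted p = 4.81e-07) and gave 0.61 ± 0.25 in med8 (edgeR adjusted p = 0.072; interaction −4.47 ± 0.38, edgeR adjusted p = 3.36e-05). WRKY53, a regulator of leaf senescence, rose in med8 (2.19 ± 0.50, edgeR adjusted p = 0.00425), and SAG21 rose in both genotypes (Col-0 0.89 ± 0.28, edgeR adjusted p = 0.0333; med8 1.36 ± 0.28, edgeR adjusted p = 0.00256). SAG20 fell in Col-0 (−0.72 ± 0.16, edgeR adjusted p = 0.00553). The breakdown genes PPH, SGR1, CLH1 and CLH2 passed in neither genotype.

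MES16, which acts on late products of chlorophyll breakdown, read 4.3, 3.88 and 4.8 CPM in the Col-0 controls and 8.02, 6.67 and 6.52 CPM on methyl viologen. In med8 it read 2.75, 2.7 and 4.1 CPM and then 2.14, 1.61 and 1.85 CPM. MES16 thus rose in Col-0 and fell in med8, as CGA1 and GLK2 did (interaction −1.48 ± 0.26, edgeR adjusted p = 0.00287).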
